A study of Homo sapiens with 6 samples.

Results

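A set of 10 genes of the death receptor system was followed in HT29 cells, a human colon adenocarcinoma line, by bulk RNA sequencing of 6 libraries: the ligand TNFSF10, the TRAIL receptors TNFRSF10A, TNFRSF10B, TNFRSF10C and TNFRSF10D, the receptors FAS, TNFRSF1A, TNFRSF21 and TNFRSF12A, and the adaptor FADD. They were taken as the rows whose Ensembl identifiers carry these 10 symbols in GENCODE, and all 10 were found among the 60676 genes listed. The genes were put together as a family with the fold changes of these same libraries in view. Their values, and whether they passed the threshold of adjusted p, are therefore given as a description, without a p. All cells were the HT29 line labelled wild type, kept for 48 h in control medium (the untreated group) or in a medium that lacked histidine or tryptophan, with 2 libraries in each group. Per the methods, the medium without histidine was built on an RPMI base and the one without tryptophan on a DMEM and F12 base, both with dialyzed serum, while the base of the control medium for these libraries is not given in the sources used here. An effect of the base or the serum cannot be told apart from that of the missing amino acid. The labels do not say whether the libraries of a group came from separate cultures, so spreads and p-values describe these libraries and may be technical.

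TRAIL, encoded by TNFSF10, is a membrane ligand of the TNF family that binds a set of closely related receptors. The receptors TNFRSF10A (DR4) and TNFRSF10B (DR5) carry a cytoplasmic death domain, through which they bind FADD, and FADD in turn recruits the initiator caspases that start apoptosis. TNFRSF10C and TNFRSF10D bind the same ligand without a working death domain and are known as decoy receptors. In colon carcinoma cells the surface amount of these receptors, the inhibitor CFLAR and the caspase inhibitors are known to set the response to TRAIL.

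The libraries held 46390819 to 64388876 reads assigned to genes. All 8 colon epithelial marker genes had more than 3 reads in a library, and their summed normalized counts ran from 374908 to 398976 in the untreated group, from 508326 to 534610 after histidine depletion and from 539845 to 542042 after tryptophan depletion. The largest part of these sums was KRT8, at 186625 and 201539 untreated and 320941 and 340439 without histidine, and the markers did not move as one. For histidine 4 rose and 4 fell, among the latter KRT18, from 118089 and 123660 to 81036 and 86412, and the intestinal factor CDX2, from 469 and 457 to 182 and 172. For tryptophan 5 rose and 1 fell. Of all tested genes 39.1% rose and 38.2% fell past the threshold for histidine, and 36.1% rose and 34.8% fell for tryptophan. KRT20 went from 10264 and 10759 untreated to 34599 and 35063 without histidine and to 55379 and 54901 without tryptophan. Of 12 markers of immune, mast, fibroblast and endothelial cells, 5 passed 3 reads in a library and 3 were at 0 throughout, among them KIT and TPSAB1 of mast cells. Their sums were 203 to 209.9 in the untreated group, 186 to 189.7 after histidine depletion and 90.7 to 102.6 after tryptophan depletion. These sums too cover members that moved apart. For histidine 2 of the 4 tested rose, with VWF going from 7.65 and 3.98 to 42.5 and 40.7 and ITGAM from 65.6 and 76.6 to 103 and 96.7, and 2 fell, with PECAM1 going from 48.1 and 36.8 to 8.13 and 9.16 and COL1A1 from 66.7 and 69.6 to 27.1 and 35.6. For tryptophan 2 of 3 fell, ITGAM to 4.27 and 10.99 and PECAM1 to 20.3 and 18.3, and COL1A1 did not pass. The part of these marker values in the results was not tested. As the libraries are bulk, a change in the number of cells that express a gene and a change in RNA per cell cannot be told apart.

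TNFSF10 and TNFRSF1A were the members that moved in opposite directions in the 2 depletions, both lower without histidine and higher without tryptophan, and the DNA upstream of their starts is shown for that reason. Starts are those of RefSeq on GRCh38.p14, whose promoter table held 5 of the 10 members. The sequences run 5′ to 3′ on the gene's strand from 250 bases before the start to the last base before any GENCODE exon of the gene. Capitals mark letters of a searched motif, which here is an interferon response element. TNFSF10 is shown from chr3:172523476-172523680 on the minus strand, and TNFRSF1A from chr12:6342115-6342326 on the minus strand.
TNFSF10: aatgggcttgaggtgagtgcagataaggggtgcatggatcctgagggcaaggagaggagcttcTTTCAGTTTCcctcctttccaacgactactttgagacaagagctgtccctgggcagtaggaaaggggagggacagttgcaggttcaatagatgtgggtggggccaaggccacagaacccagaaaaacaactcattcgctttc
TNFRSF1A: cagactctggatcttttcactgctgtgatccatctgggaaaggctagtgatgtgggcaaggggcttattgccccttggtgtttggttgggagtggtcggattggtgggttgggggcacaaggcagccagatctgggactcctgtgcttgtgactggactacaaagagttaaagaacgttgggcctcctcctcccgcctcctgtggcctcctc

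A total of 9 motifs were searched on both strands of the 250 bases before each start. The capitals in TNFSF10 match the interferon response element GAAANNGAAA at positions -187 to -178 from the start, a motif that 3.02% of 35116 promoters of the same length hold. TNFSF10 also held TATAAA at -31 to -26, in bases that GENCODE counts as exonic and that are therefore not shown, as 10.7% of promoters did. The FAS window, all of it exonic in GENCODE, held the AP-1 motif TGANTCA at -242 to -236, found in 6.57% of promoters, and the SP1 motif GGGCGG at -60 to -55, found in 42.6%. The TNFRSF21 window held GGGCGG at -52 to -47, and FADD held it at -209 to -204 and at -77 to -72. The TNFRSF1A window held none of the 9 motifs. No match in these 5 windows was found for the NF-kB motif (in 6.88% of promoters), for the interferon activation site TTCNNNGAA (6.57%), for the cAMP response element TGACGTCA (1.65%), for TGATGNAA of ATF4 and CHOP (3.14%) or for the E2F motif TTTCGCGC (0.439%). A match describes letters only, and the absence of one concerns this window only.

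The decoy receptor TNFRSF10D had the highest fold change of the members in both depletions, TNFRSF10B rose alike in both, TNFRSF10A rose without histidine and stayed at the untreated level without tryptophan, and FAS fell in both. Values below are normalized counts, that is reads divided by a size factor computed over all 6 libraries. Fold changes are log2(normalized count + 1) differences with their SE from limma. Those against untreated were fitted on the deposited values, scaled separately for each depletion. Only the direct comparison was fitted on the scale of all 6 libraries. Of the 10 members, 9 passed the filter of a mean normalized count of 10 in each comparison, and TNFRSF10C did not. After histidine depletion 5 of the 9 were past the threshold and higher, 3 past it and lower and 1 not past it, beside 77.3% of all 18288 genes tested that were past it (39.1% higher, 38.2% lower). After tryptophan depletion the members divided into 5 higher, 1 lower and 3 not past it, beside 70.8% of 17960 genes (36.1% higher, 34.8% lower). With this share called, and with members chosen on these contrasts, nothing is read from the counts or from the medians that follow. The member median was 0.28 against 0.01 over all genes for histidine, and 0.43 against 0.01 for tryptophan. Under a limit of 2-fold in either direction, where 32.5% of genes were called for histidine (16.4% higher, 16.1% lower) and 20.5% for tryptophan (10.0% higher, 10.4% lower), the members gave 4 higher and 1 lower for the first and 2 higher and 1 lower for the second. TNFRSF10B sat at that limit in both, and under quantile normalization it was below it, at 0.77 and 0.94.

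**Figure D1:**
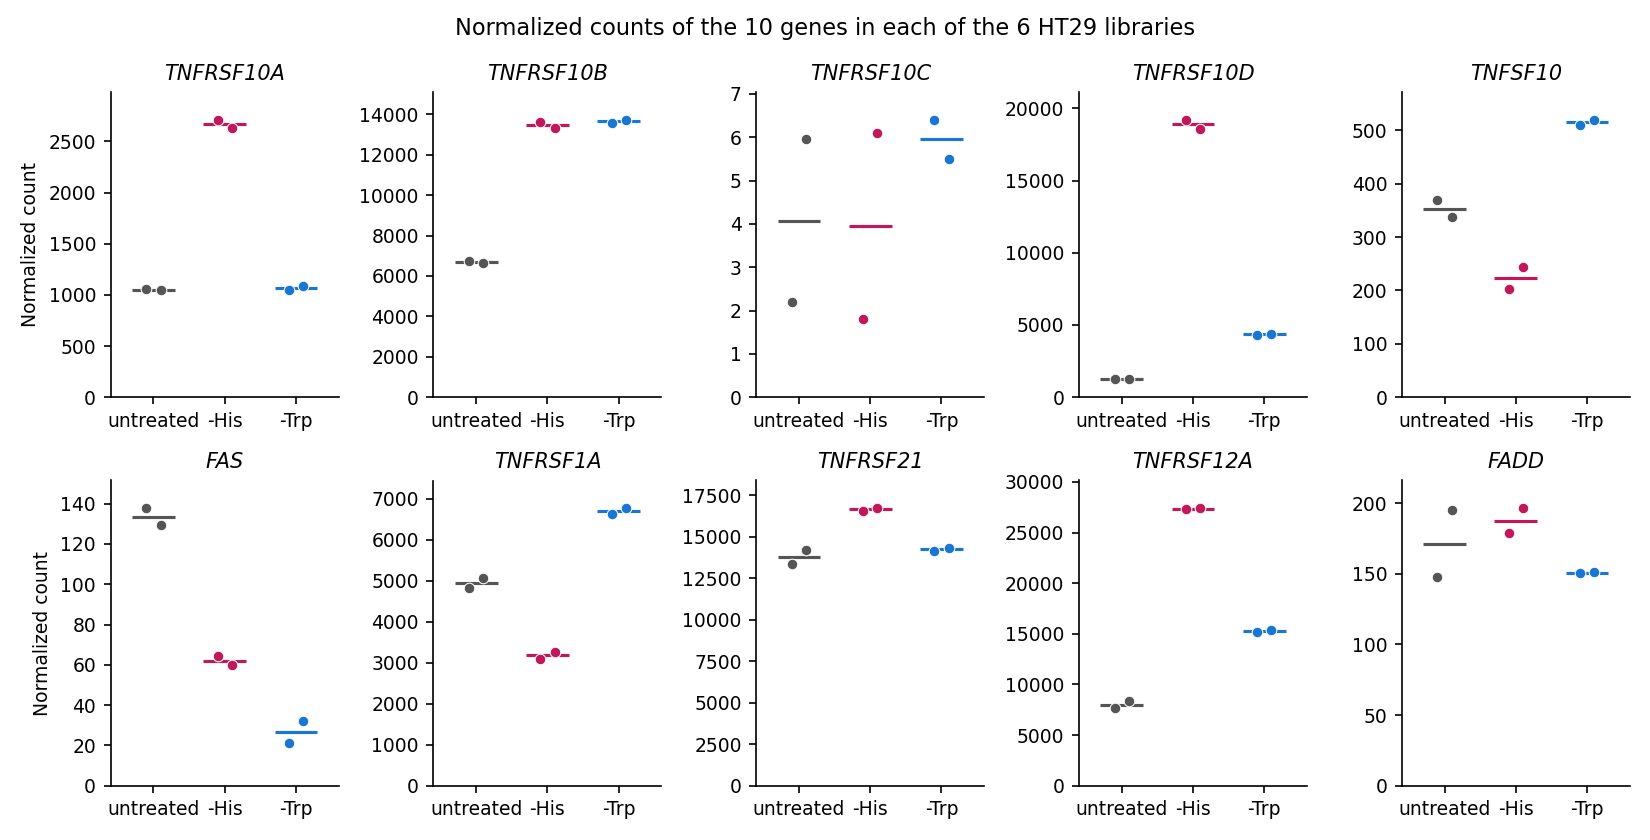
Normalized counts of the 10 genes (vertical axes, linear from 0, a separate scale for each gene) in the untreated, histidine-depleted (-His) and tryptophan-depleted (-Trp) libraries; each point is 1 library and each line the mean of 2. TNFRSF10D stood at 19209 and 18586 without histidine against 1283 and 1252 in the untreated libraries, and TNFRSF10C stayed under 7 in all of them.

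The ligand came first. TNFSF10 (ENSG00000121858, chr3:172505508-172523475, minus strand, hg38) had 369 and 337 normalized counts untreated, 202 and 244 without histidine and 511 and 520 without tryptophan. The 3 groups did not overlap, with the histidine-depleted libraries lowest and the tryptophan-depleted ones highest. The log2 fold change was -0.66 ± 0.11 for histidine, 0.54 ± 0.088 for tryptophan and -1.21 ± 0.098 for histidine against tryptophan depletion, fitted directly.

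TNFRSF10A (ENSG00000104689, chr8:23190452-23225102, minus strand) encodes DR4. It had 1057 and 1044 normalized counts untreated, 2711 and 2634 without histidine and 1045 and 1087 without tryptophan. The tryptophan-depleted values overlapped the untreated ones, and the histidine-depleted values lay above both. Its log2 fold change was 1.36 ± 0.058 for histidine, 0.01 ± 0.063 for tryptophan and 1.33 ± 0.043 between the depletions. For the tryptophan value the sign turned to -0.02 without the tryptophan-depleted replicate 2. Of its exonic bases 16.7% lie opposite TNFRSF10A-AS1 or TNFRSF10A-DT. The libraries came from a stranded kit, but whether the counting used strand is not given in the sources used here.

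TNFRSF10B (ENSG00000120889, chr8:23020133-23069031, minus strand) encodes DR5, the TRAIL receptor known as a target of the stress factor CHOP. It had 6756 and 6654 normalized counts untreated, 13599 and 13305 without histidine and 13584 and 13735 without tryptophan. Both depletions stood well above the untreated group and their ranges overlapped each other. The log2 fold changes were 1.01 ± 0.049 for histidine and 1.02 ± 0.047 for tryptophan, with a direct difference of -0.02 ± 0.026. Under quantile normalization the histidine value was 0.77 and the direct difference -0.18, which then passed the threshold. RHOBTB2 overlaps 7.52% of its exonic bases on the opposite strand.

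TNFRSF10D (ENSG00000173530, chr8:23135588-23164027, minus strand) encodes the decoy receptor DcR2, whose death domain is truncated. It had 1283 and 1252 normalized counts untreated, 19209 and 18586 without histidine and 4308 and 4373 without tryptophan. The 3 groups were far apart, with the tryptophan-depleted libraries between the other two. Histidine depletion gave a log2 fold change of 3.91 ± 0.050, which is 15.0-fold and the rank 172 from the highest of 18288 genes. Tryptophan depletion gave 1.77 ± 0.052, which is 3.40-fold and the rank 591 of 17960. Between the depletions the difference was 2.12 ± 0.028. No other annotated gene overlaps its exons.

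TNFRSF10C (ENSG00000173535, chr8:23102921-23117445, plus strand) encodes the decoy receptor DcR1, which is held in the membrane by a lipid anchor. It had 2.19 and 5.97 normalized counts untreated, 1.81 and 6.10 without histidine and 6.40 and 5.49 without tryptophan, from 2 to 6 reads in each library. No difference was detectable at this depth and no fold change is given. Of its exonic bases 33.0% are shared with other genes on the same strand, and it is closely similar in sequence to TNFRSF10D. How reads that fit several genes were handled is not given in the sources used here, so its low value is uncertain.

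Among the other receptors with a death domain, FAS (ENSG00000026103, chr10:88953813-89029605, plus strand) binds the FAS ligand and recruits FADD directly. It had 138 and 129 normalized counts untreated, 64.1 and 60.0 without histidine and 21.3 and 32.0 without tryptophan. The 3 groups did not overlap, and both depletions were lower than the untreated group, tryptophan the lower of them. The log2 fold change was -1.08 ± 0.17 for histidine, -2.31 ± 0.22 for tryptophan, which was the rank 377 from the lowest of 17960, and 1.21 ± 0.25 between the depletions. ACTA2 and a long noncoding RNA lie opposite 6.48% of the exonic bases of FAS, and STAMBPL1 shares 0.57% of them on the same strand. STAMBPL1 had 1559 and 1548 normalized counts untreated, 1593 and 1655 without histidine and 1064 and 1006 without tryptophan. ACTA2 itself had 24.0 and 22.9 normalized counts untreated, 38.9 and 32.6 without histidine and 9.60 and 4.58 without tryptophan.

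TNFRSF1A (ENSG00000067182, chr12:6328757-6342114, minus strand) encodes the main TNF receptor, which signals through TRADD to NF-kB or to caspases. It had 4818 and 5076 normalized counts untreated, 3101 and 3255 without histidine and 6626 and 6772 without tryptophan. As for TNFSF10, the groups were apart and the depletions lay on opposite sides of the untreated libraries. The log2 fold change was -0.63 ± 0.052 for histidine, 0.43 ± 0.047 for tryptophan and -1.08 ± 0.034 between them.

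TNFRSF21 (ENSG00000146072, chr6:47231532-47309905, minus strand) encodes the death domain receptor DR6. It had 13363 and 14178 normalized counts untreated, 16565 and 16703 without histidine and 14114 and 14339 without tryptophan. The histidine-depleted libraries were above the others, and the tryptophan-depleted ones overlapped the untreated range. Its log2 fold change was 0.28 ± 0.051 for histidine, 0.04 ± 0.048 for tryptophan and 0.23 ± 0.025 between them. Quantile normalization left 0.03 of the histidine value, no longer past the threshold. It turned the tryptophan value to -0.06, then past the threshold and lower. Without the untreated replicate 1 the tryptophan value was -0.0027, and without the untreated replicate 2 it was 0.08 and past the threshold.

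TNFRSF12A (ENSG00000006327, chr16:3018445-3022383, plus strand) encodes Fn14, the TWEAK receptor, which has no death domain and signals through TRAF proteins. It had 7672 and 8315 normalized counts untreated, 27320 and 27406 without histidine and 15200 and 15344 without tryptophan. The order was that of TNFRSF10D, with the groups apart. Histidine gave 1.79 ± 0.053, tryptophan 0.93 ± 0.047 and the direct comparison 0.84 ± 0.024 on the log2 scale. CLDN6, opposite 2.22% of its exonic bases, had under 70 normalized counts in every library.

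FADD (ENSG00000168040, chr11:70203296-70207390, plus strand) had 148 and 195 normalized counts untreated, 179 and 196 without histidine and 150.5 and 151 without tryptophan. The untreated libraries spanned most of the other values, so that neither depletion was apart from them. The log2 fold change was 0.15 ± 0.14 for histidine and -0.18 ± 0.14 for tryptophan, and 0.31 ± 0.11 between the depletions. These values turned on single untreated libraries. Without the untreated replicate 1 the histidine value was -0.05 and the tryptophan value -0.38, which then passed the threshold, and without the untreated replicate 2 they were 0.35, then past it, and 0.02. The direct difference was no longer past the threshold with DESeq2, in the fit of all 6 libraries, without the histidine-depleted replicate 2 or without either tryptophan-depleted library, at 0.25 to 0.32. A noncoding gene opposite 59.2% of its exonic bases was at 0 in all libraries.

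**Figure D2:**
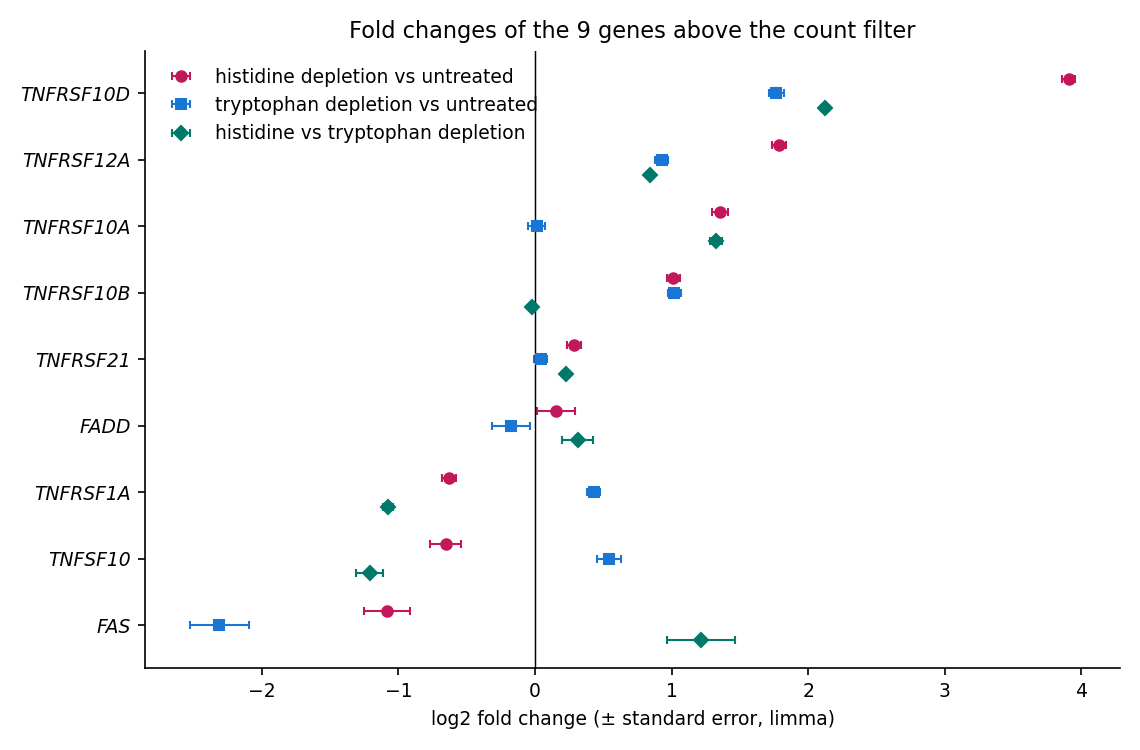
Log2 fold change with its SE from limma (horizontal axis) for the 9 members above the count filter (vertical axis), for each depletion against the untreated libraries and for histidine against tryptophan depletion, 2 libraries a group. TNFRSF10D lies farthest to the right at 3.91 and 1.77, FAS farthest to the left at -1.08 and -2.31, and TNFSF10 and TNFRSF1A change side between the depletions.

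Directly compared, histidine depletion was higher than tryptophan depletion for 6 of the 9 members past the threshold and lower for 2, beside 78.3% of 18276 genes called (39.9% higher, 38.4% lower). TNFRSF10D, FAS and TNFRSF10A were at least 2-fold higher on the fitted scale and TNFSF10 and TNFRSF1A at least 2-fold lower, where 32.1% of genes passed that limit (16.4% higher, 15.7% lower). The value of FAS, from 20 and 35 reads without tryptophan, was under that limit at 0.93 without the tryptophan-depleted replicate 1, and 1.497 without the other. TNFRSF10B was the member not past the threshold. The member median was 0.31 against 0.02 over all genes, from which nothing is read, as the members were chosen with results known. The comparisons with the untreated group share the same 2 untreated libraries.

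Levels between genes were compared per kilobase of exon. In untreated cells TNFRSF12A was highest at 4438 ± 253 normalized counts per kilobase (SD, n = 2) and TNFRSF21 next at 3831 ± 160. TNFRSF10B at 1338 ± 14.4 and TNFRSF1A at 1176 ± 43.3 followed. TNFRSF10A at 359 ± 3.04 and TNFRSF10D at 359 ± 6.19 did not differ beyond their spread on this length, nor did TNFSF10 at 103 ± 6.63 and FADD at 100.3 ± 19.6. FAS at 4.56 ± 0.203 and TNFRSF10C at 2.64 ± 1.73 were lowest. The FAS level is understated, because its exons from 61 annotated transcripts add to 29313 bases, and over the 3696 bases of its MANE Select transcript, a length chosen after seeing the data, it was 36.1 ± 1.61. On that length TNFRSF1A at 2279 ± 83.9 stood above TNFRSF10B at 1677 ± 18.0, and both near ties ended, with TNFRSF10A at 391 ± 3.31 above TNFRSF10D at 359 ± 6.19 and TNFSF10 at 188 ± 12.2 above FADD at 100.3 ± 19.6. Without histidine TNFRSF10D reached 5346 ± 125 per kilobase of exon, second to TNFRSF12A at 15193 ± 33.8 and above TNFRSF21 at 4627 ± 27.2. Without tryptophan it was 1228 ± 13.1, below TNFRSF10B at 2726 ± 21.3 and TNFRSF1A at 1593 ± 24.7.

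Among the 4 TRAIL receptors the RNA passed from mostly DR5 to mostly decoy in the histidine-depleted cells. The 4 together had 2074 and 2043 normalized counts per kilobase of exon untreated, 9076 and 8817 without histidine and 4291 and 4354 without tryptophan. TNFRSF10D made 17.5% and 17.3% of this sum untreated, 59.9% and 59.6% without histidine and 28.4% in both libraries without tryptophan. TNFRSF10B made 65.0% in both untreated libraries, 29.9% and 30.1% without histidine and 63.2% and 63.0% without tryptophan. From the untreated to the tryptophan-depleted libraries the share of TNFRSF10A went from 17.4% and 17.5% to 8.32% and 8.53%, a larger drop than that of TNFRSF10B. The ratio of TNFRSF10A plus TNFRSF10B to TNFRSF10C plus TNFRSF10D was 4.69 and 4.71 untreated, 0.670 and 0.676 without histidine and 2.51 in both libraries without tryptophan. The libraries of a group lay close together, and the ratio was under 1 in the histidine-depleted libraries with each of the lengths tried. These are RNA ratios, and receptor protein was not measured in these libraries.

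**Figure D3:**
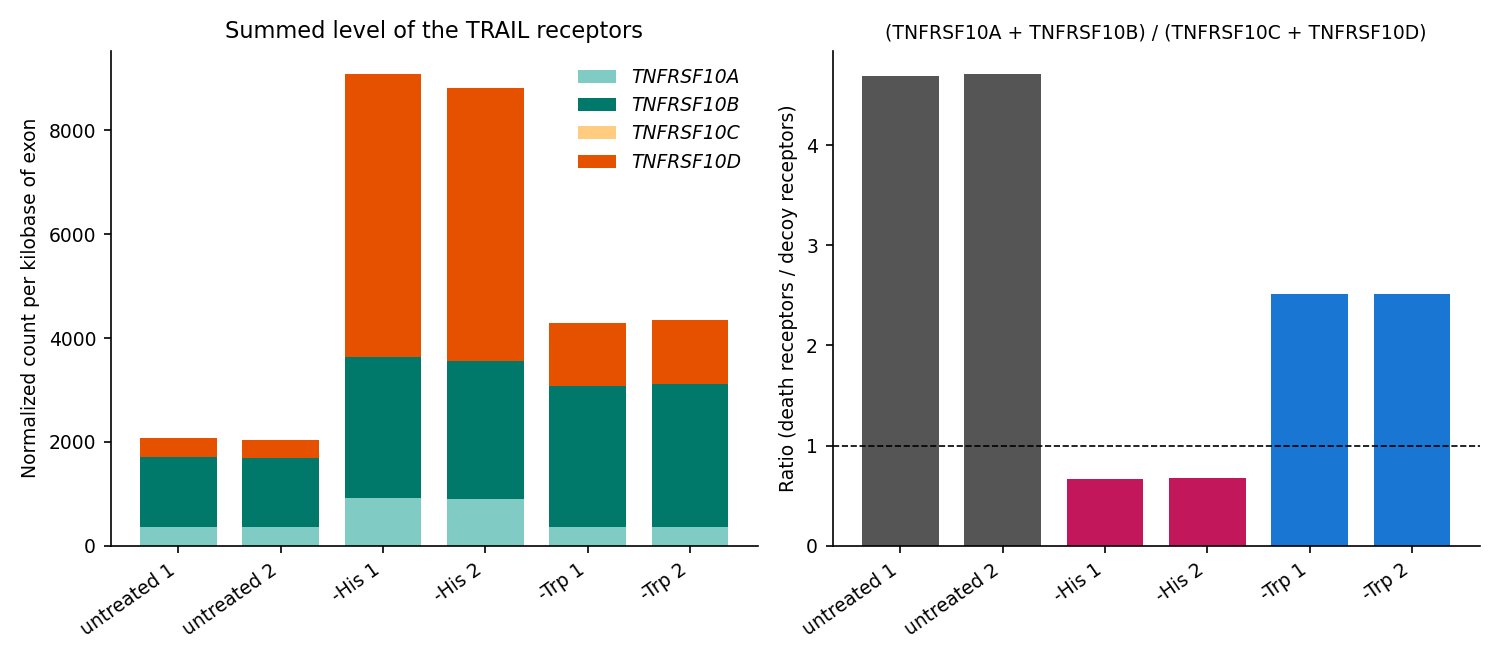
Left, stacked normalized counts per kilobase of exon of the 4 TRAIL receptors in each library; right, the ratio of the 2 receptors with a death domain to the 2 decoy receptors in each library, with a dashed line at 1, both on linear axes from 0. TNFRSF10D forms the largest block in the histidine-depleted (-His) libraries, where the ratio is 0.670 and 0.676, and TNFRSF10C is too low to be seen.

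The 4 TRAIL receptor genes lie side by side from chr8:23020133-23225102 (hg38). Of the 24 annotated genes within 200 kb of this span, themselves included, 23 were listed and 12 passed the filter in the histidine comparison. The protein-coding neighbours tested did not move as the receptors did without histidine. CHMP7, an ESCRT subunit, had a log2 fold change of 0.02 and ENTPD4, a Golgi nucleotidase, 0.03, while RHOBTB2, next to TNFRSF10B, had 0.17. R3HCC1 fell to 312 and 363 normalized counts from 912 and 1094, a log2 fold change of -1.56. One neighbour had a higher fold change than TNFRSF10D. The long noncoding RNA ENSG00000245025, which lies just beyond the 3′ end of TNFRSF10B on the same strand, had 48.1 and 59.7 normalized counts untreated, 1056 and 987 without histidine and 54.4 and 79.7 without tryptophan. Its log2 fold change was 4.24 for histidine and 0.29 for tryptophan, the latter not past the threshold. TNFRSF10B rose alike in both depletions, and a link between them was not tested. TNFRSF10A-AS1 rose from 54.7 and 66.6 to 178 and 172 without histidine, a log2 fold change of 1.53 beside 1.36 of TNFRSF10A, and the 2 genes overlap on opposite strands. TNFRSF10A-DT, which starts beside TNFRSF10A in the other direction, had 190.2 and 178 untreated and 203 and 231 without histidine. Without tryptophan RHOBTB2 fell by 0.82 and ENTPD4 rose by 0.50 on the log2 scale.

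**Figure D4:**
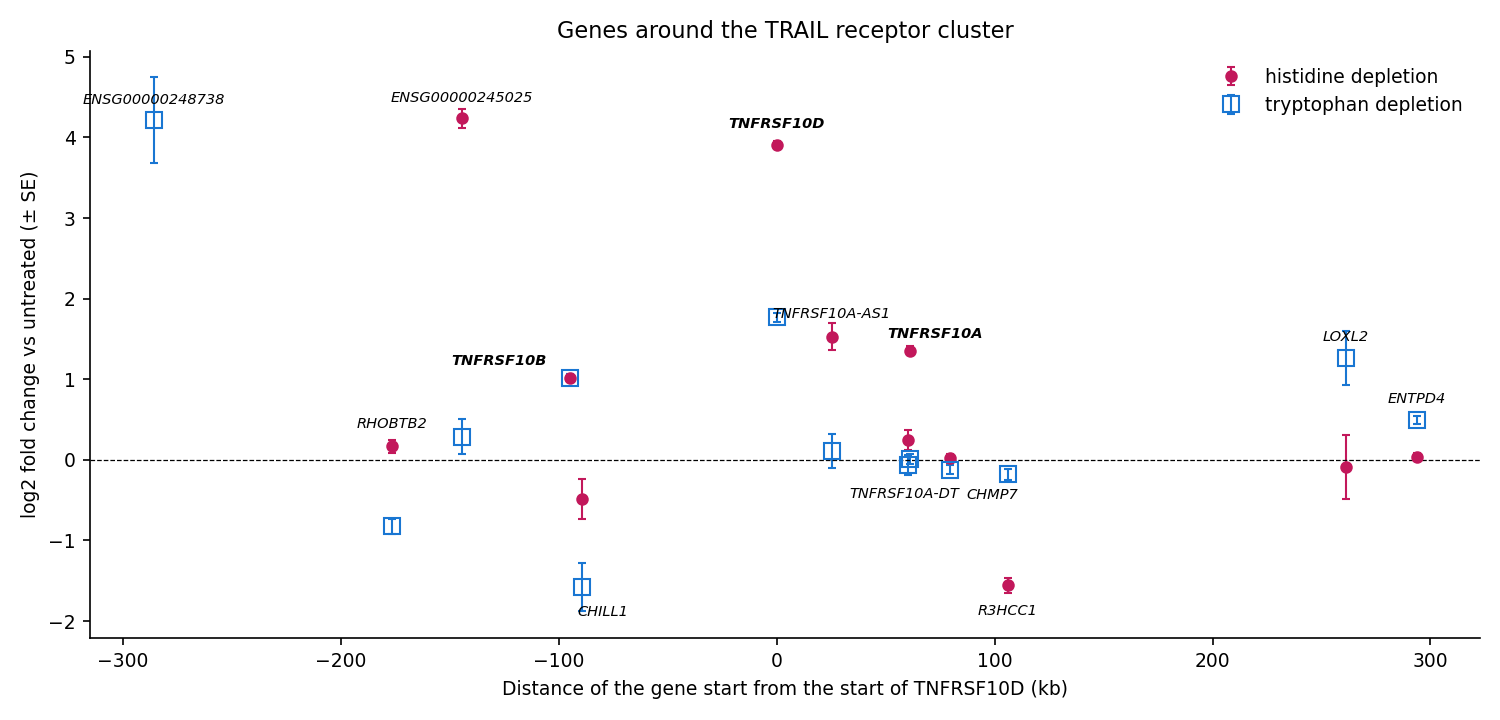
Log2 fold change against untreated with its SE from limma (vertical axis) for the genes near the TRAIL receptor cluster that passed the count filter, by the distance in kb of each gene's start from that of TNFRSF10D (horizontal axis); circles show histidine depletion, open squares tryptophan depletion, and members are in bold. Without histidine ENSG00000245025 at 4.24 and TNFRSF10D at 3.91 stand above the other genes of the region, and CHMP7 and ENTPD4 lie near 0.

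By pattern, the genes nearest to each member were sought over 12472 genes whose mean was 100 or more, as the Euclidean distance between log2 values centred on each gene's mean over the 6 libraries. For TNFRSF10D they were CCN2, a matricellular protein, at 0.271, SQSTM1, the autophagy receptor p62, at 0.279 and the histone gene H2BC18 at 0.304. SQSTM1 went from 19426 and 20579 normalized counts untreated to 249843 and 252426 without histidine and 59254 and 59743 without tryptophan. For TNFRSF10B the nearest was TFG at 0.0378, followed by MAFF and TBX19. TNFRSF10A was nearest to HNRNPH3 at 0.0598, TNFRSF12A to SEC24A at 0.110, TNFRSF21 to PPP2R5E at 0.0116 and TNFRSF1A to FAM174B at 0.0397, with the one-carbon enzyme MTHFD2 next at 0.0554. TNFSF10 was nearest to the long noncoding RNA ENSG00000261770 at 0.116 and FADD to the pseudogene RPSAP9 at 0.121. FAS was under the mean needed. How many genes share each pattern was not counted, and with 6 libraries in 3 groups the distances describe these libraries only.

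Of 89 further genes of the pathway, in 6 lists by role, 67 passed the filter for histidine, of which 33 rose, 21 fell and 13 did not pass the threshold. For tryptophan 33 of 66 rose, 23 fell and 10 did not pass. That is 80.6% of the pathway genes tested for histidine and 84.8% for tryptophan, beside 77.3% of all genes for the first (39.1% higher) and 70.8% for the second (36.1% higher). Lower were 38.2% of all genes for histidine and 34.8% for tryptophan. These shares of all genes stand beside the counts of each list below as well. As the lists were chosen with results known, the counts and shares were not tested, and nothing is read from them. All adjusted p below are from limma with Benjamini-Hochberg adjustment over all tested genes. Genes named by the size of their change had to pass this threshold, in lists chosen with results known. Their p therefore describe these libraries and are no support. Where counting could mix neighbours, values are less certain: 55.5% of the exonic bases of TNFSF13 and 31.5% of those of DIABLO are shared with genes on the same strand, and 31.6% of those of DDIT3 and 22.9% of IRF1 lie opposite another gene.

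The receptor complex list held 19 genes, all tested. For histidine 8 rose, 8 fell and 3 did not pass, and for tryptophan 9 rose, 7 fell and 3 did not pass. The largest changes without histidine included TNFAIP3, PEA15 and CYLD. TNFAIP3, the deubiquitinase A20 that restrains TNF receptor signalling, had 175 and 154 normalized counts untreated and 3913 and 3519 without histidine, a log2 fold change of 4.50 ± 0.078 (adjusted p = 1.19e-23). It fell to 86.4 and 89.7 without tryptophan, -0.90 ± 0.155 (adjusted p = 1.07e-07). PEA15, a death effector domain protein that binds FADD, rose by 2.49 ± 0.050 without histidine and 0.57 ± 0.048 without tryptophan (adjusted p = 1.31e-22 and 8.18e-22). CYLD, another deubiquitinase, rose by 2.07 ± 0.061 and 0.37 ± 0.068. CFLAR, the caspase-like inhibitor FLIP, had 3130 and 3238 normalized counts untreated, 8056 and 8032 without histidine and 3781 and 3822 without tryptophan, which is 1.35 ± 0.050 and 0.25 ± 0.049. CASP8, the initiator caspase it competes with, rose less without histidine, by 0.27 ± 0.053 (adjusted p = 7.38e-05), and by 0.52 ± 0.051 without tryptophan (adjusted p = 3.1e-18).

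Other members of the receptor complex went opposite ways in the 2 depletions. TRAF2, an adaptor of the TNF receptors, rose by 0.97 ± 0.053 without histidine and was -1.11 ± 0.055 without tryptophan, with a direct difference of 2.07 ± 0.038 (adjusted p = 5.39e-13). RBCK1, the HOIL-1 subunit of the linear ubiquitin ligase, was at -0.15 ± 0.055 without histidine and 2.03 ± 0.050 without tryptophan. RIPK1, the kinase bound by TRADD, fell by 0.34 without histidine and rose by 0.28 without tryptophan, in the directions of TNFRSF1A. TRADD rose in both, by 0.23 ± 0.086 and 0.37 ± 0.080 (adjusted p = 0.0197 and 2.18e-05). The histidine value of TRADD did not pass the threshold without the histidine-depleted replicate 2, at 0.21, or the untreated replicate 2, at 0.13, nor with DESeq2, at 0.22, nor in limma when the low genes were kept or the trend left out, at 0.23. That of RBCK1 did not pass without either histidine-depleted library or the untreated replicate 2, at -0.18 to -0.07, nor with the low genes kept or the trend left out, at -0.15.

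Of the 21 other TNF receptors 8 passed the filter for histidine, where 2 rose and 5 fell, and 9 for tryptophan, where 5 rose and 3 fell. LTBR, the lymphotoxin receptor, and TNFRSF14, the receptor HVEM, shared the directions of TNFRSF1A. LTBR was -0.65 ± 0.051 without histidine and 0.27 ± 0.047 without tryptophan, and TNFRSF14 was -0.54 ± 0.066 and 0.41 ± 0.059. TNFRSF9 (CD137) rose from 3.28 and 12.9 normalized counts to 227 and 209 without histidine and to 260 and 221 without tryptophan, log2 fold changes of 4.83 ± 0.348 and 4.95 ± 0.269. Without the untreated replicate 1 these were 3.98 and 4.10, and without the untreated replicate 2 they were 5.68 and 5.80. TNFRSF11A, the receptor RANK, had log2 fold changes of -2.41 ± 0.091 and -3.25 ± 0.099. TNFRSF11B, osteoprotegerin, a soluble receptor that also binds TRAIL, had 153 and 159 untreated, 81.3 and 81.4 without histidine and 47.0 and 41.2 without tryptophan. It fell in both, with -0.92 ± 0.153 and -1.81 ± 0.183 (adjusted p = 7.84e-06 and 4.61e-17), against the direction of the decoy TNFRSF10D. RELT rose by 1.07 ± 0.090 without histidine and had -0.06 ± 0.106 without tryptophan, where its groups overlapped. TNFRSF25 (DR3), a death domain receptor, had 351 and 264 untreated, 265 and 239 without histidine and 346 and 398 without tryptophan, overlapping in both comparisons. Its tryptophan value of 0.28 ± 0.101 passed the threshold (adjusted p = 0.0102), and no longer did with edgeR or when limma kept the low genes or left out the trend, at 0.28, with DESeq2, at 0.26, without the untreated replicate 2, at 0.07, or without the tryptophan-depleted replicate 2, at 0.17. Its histidine value of -0.26 passed only under some alternatives, which were the replicate block, a mean of at least 50, a pseudocount of 8 and leaving out the histidine-depleted replicate 1 or the untreated replicate 2, at -0.47 to -0.26. Without the untreated replicate 1 TNFRSF25 had -0.06 for histidine and 0.48 for tryptophan. TNFRSF6B, the soluble decoy for the FAS ligand, was listed at 0 in all libraries. All of its exonic bases also belong to RTEL1-TNFRSF6B, so this 0 does not measure its RNA.

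Of the 17 other ligands 9 passed the filter for histidine, with 6 higher and 1 lower, and 7 for tryptophan, with 4 higher and 3 lower. LTB, a lymphotoxin subunit, had 23.0 and 31.8 untreated, 204 and 174 without histidine and 12.8 and 8.24 without tryptophan. Its direct difference was 4.07 ± 0.244 (adjusted p = 1.41e-08). TNFSF15 rose in both, by 1.78 ± 0.051 and 1.30 ± 0.048, and TNFSF13 (APRIL) fell in both, with -0.86 ± 0.105 and -0.85 ± 0.106. TNF itself stayed low at 6.56 and 0.995 untreated and 20.8 and 18.3 without histidine (log2 fold change 2.41 ± 0.552, adjusted p = 0.000378), and had 4.27 and 0 without tryptophan, under the filter. The untreated libraries held 6 reads and 1 read, and its histidine value was 3.36 without the untreated replicate 1 and 1.45 without the untreated replicate 2. LTA, lymphotoxin alpha, had 2 reads and 0 reads untreated, 51 and 43 without histidine, and 2 and 3 without tryptophan. Its fitted histidine value of 4.69 depends on the pseudocount, with 2.55 at a pseudocount of 8, and was 3.86 without the untreated replicate 2 and 5.52 without the untreated replicate 1. FASLG, the ligand of FAS, had at most 2 reads in a library.

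In the execution and mitochondrial arm all 16 genes were tested, and 10 rose and 3 fell without histidine, while 4 rose and 8 fell without tryptophan. BIRC3, the caspase and NF-kB regulator cIAP2, had 316 and 377 normalized counts untreated, 9841 and 9513 without histidine and 402 and 385 without tryptophan. Its histidine fold change of 4.81 ± 0.068 (adjusted p = 2.42e-25) was above that of TNFRSF10D, and its tryptophan value of 0.18 ± 0.0945 did not pass (adjusted p = 0.0756). That value did pass under quantile normalization, at 0.29, in the fit of all 6 libraries, at 0.19, and without the untreated replicate 2, at 0.31. Without the untreated replicate 1 it was 0.06. XIAP, the inhibitor of caspase-3, rose alike in both, by 0.55 ± 0.051 and 0.51 ± 0.047. The initiator CASP9 rose by 1.99 ± 0.059 without histidine and had 0.06 ± 0.069 without tryptophan, a value that passed under quantile normalization, at 0.17. The executioner CASP6 fell in both, with -2.25 ± 0.072 and -1.91 ± 0.065, as did BID, which links CASP8 to mitochondria, with -0.76 ± 0.057 and -0.19 ± 0.052. The tryptophan value of BID did not pass without the tryptophan-depleted replicate 2, at -0.17, or in limma without the trend, at -0.19. DIABLO, an antagonist of the IAP proteins, had 43.7 and 33.8 untreated, 114 and 98.7 without histidine and 29.9 and 33.9 without tryptophan. APAF1 and MLKL fell without tryptophan, with -1.07 ± 0.063 and -0.91 ± 0.064. Without histidine APAF1 had -0.08 ± 0.060, not past the threshold, and MLKL rose by 0.26 ± 0.063 (adjusted p = 0.000719), a call lost in limma without the trend.

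Enzymes that glycosylate or route the TRAIL receptors divided into 3 lower and the other two not past the threshold without histidine, and 3 higher and 1 lower without tryptophan, of 5 tested. GALNT14, a mucin-type glycosyltransferase that modifies DR5, fell in both, with -0.85 ± 0.055 and -0.69 ± 0.052. The fucosyltransferase FUT3 had 146 and 163 normalized counts untreated and 157 and 159 without histidine, and rose to 784 and 765 without tryptophan, 2.31 ± 0.096. ZDHHC7, which palmitoylates FAS, fell by 0.55 ± 0.051 without histidine and rose by 0.17 ± 0.047 without tryptophan, and GALNT3 rose by 0.56 ± 0.047 in the latter. The tryptophan value of ZDHHC7 did not pass with either tryptophan-depleted library left out or in limma without the trend, at 0.16 to 0.17. ARAP1, which acts in the transport of DR4 to the surface, fell by 0.37 ± 0.050 without histidine and had 0.02 without tryptophan.

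Of the 10 transcription factors with known ties to these receptor genes, 7 rose and 1 fell without histidine, and 8 rose and 1 fell without tryptophan. DDIT3, which encodes CHOP, had 1198 and 1177 normalized counts untreated, 2011 and 1806 without histidine and 4758 and 4739 without tryptophan. Its log2 fold changes of 0.69 ± 0.063 and 1.99 ± 0.051 differed by -1.32 ± 0.047 in the direct fit (adjusted p = 1.19e-10). TNFRSF10B rose alike in both depletions, and whether CHOP acted on it here was not tested. ATF3 rose by 1.49 ± 0.052 and 0.98 ± 0.050. RELA, the NF-kB subunit p65, rose by 2.14 ± 0.052 and 0.43 ± 0.047, IRF1 by 1.90 ± 0.055 and 0.46 ± 0.056. JUN rose by 1.64 ± 0.052 without histidine and was -0.61 ± 0.048 without tryptophan. CEBPB had -0.05 ± 0.059 without histidine, where the groups overlapped, and rose by 1.19 ± 0.049 without tryptophan. Its histidine value passed the threshold under quantile normalization, at -0.12, and without the untreated replicate 1, at -0.13.

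**Figure D5:**
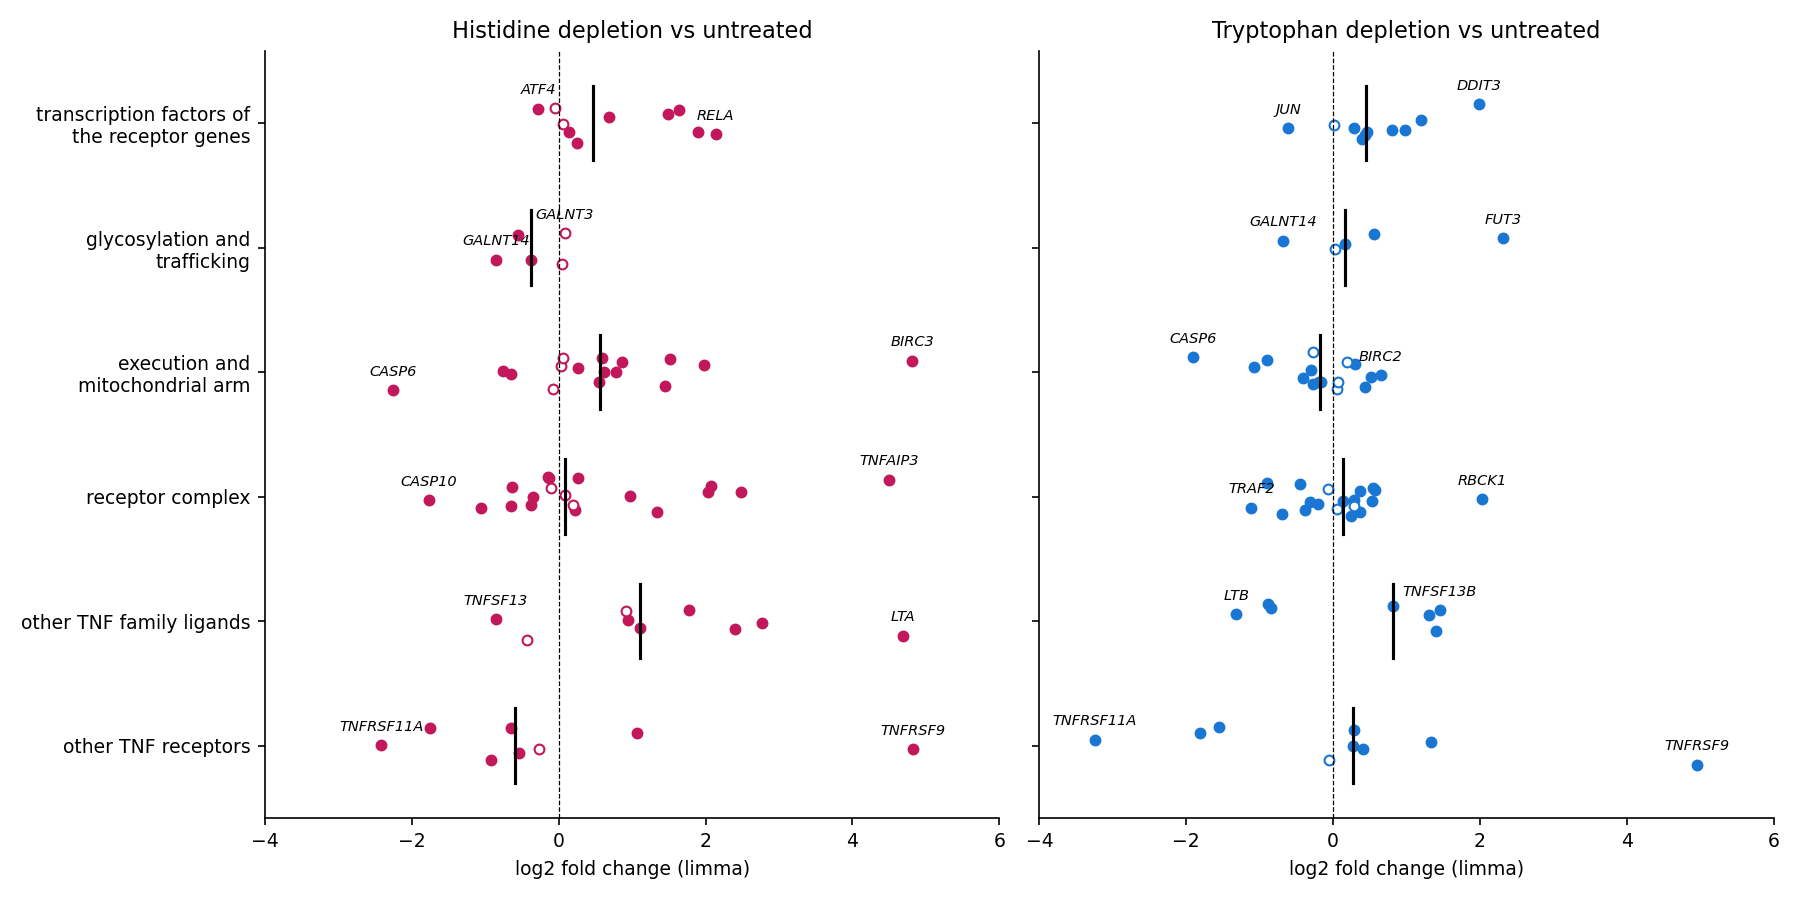
Log2 fold change against untreated (horizontal axis, limma) of the tested genes of the 6 pathway lists (rows) for histidine depletion, left, and tryptophan depletion, right; each point is a gene, filled when past the threshold and open when not, black bars are list medians, and the lowest and highest gene of each list is named. TNFAIP3, BIRC3 and TNFRSF9 lie above 4 without histidine, and TNFRSF9 does so without tryptophan too; LTA is also drawn above 4 on the left, from 2 and 0 untreated reads, and was under the filter on the right.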

How the data were processed

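Stranded poly(A) libraries with molecular identifiers in the adapters were sequenced paired-end. Per the submitters' processing notes, STAR (version 2.7.10a), HTSeq (2.0.5) and DESeq2 were used on GRCh38. The methods name an earlier GENCODE release for the counting than the one used here for lengths and overlaps, and exons of protein-coding genes, although the tables also list noncoding genes. How identifiers, strand and multi-mapped reads were treated is not given in the sources used here. The deposited tables, 1 for each depletion with the same untreated libraries, hold a signal per gene: read counts that the authors divided by DESeq2 size factors. Dividing by the steps between low values returned whole reads for 100% of values, within 0.01. Reads of all 6 libraries were then brought to 1 scale with median-of-ratios factors for the levels and the direct comparison. Intervals over reads would cover counting error only and are not given.

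Within its own table, each depletion was set against the untreated libraries by limma (3.58.1, trend, two-sided) on log2(normalized count + 1), after removing genes whose mean over the libraries compared was under 10. Benjamini-Hochberg adjustment ran over all genes tested, with a threshold of 0.05. The fits were tested on simulated data in which far fewer genes changed than were called here. That test does not show that the calls in these libraries are right. Symbols, exons and coordinates came from GENCODE 44 (60357 of 60676 identifiers matched) and promoters from RefSeq. Pathway genes were named as the up to 3 largest changes of a list past the threshold, given groups that did not overlap and a higher group averaging 100 or more, plus 12 chosen by name. LTA was outside this rule and is described because the figure of the lists names it. A gene of the lists is not reported here and was left out of their counts. The members and all lists were chosen with earlier results of these data known. Tried in place of these settings were a pseudocount of 0.5 or 8, every gene with a value or those averaging 50, a variance model with no trend, quantile normalization of log2 values, count tests of the recovered reads by edgeR (4.0.16) and by DESeq2 (1.42.0), the replicate number as a block, a joint fit of all 6 libraries, a 2-fold limit, and leaving out each library.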

Additional observations from a re-analysis of the deposited data

How the results depend on the processing

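With 2 libraries a group, a lone library left in a group is assumed to vary like the others. Over the alternatives, 123 of 126 fitted values of the members for histidine kept their direction and side of the threshold, 120 of 126 for tryptophan and 119 of 125 for the direct comparison. FAS fell under the filter of a mean of 50 in the last. The exceptions were values of TNFRSF10A, TNFRSF10B, TNFRSF21 and FADD. For histidine and the direct comparison the largest shift from scaling was that of quantile normalization, a median change of a gene's log2 fold change of -0.05 over all genes and -0.08 over the members for histidine, and of -0.03 and -0.10 for the direct comparison. For tryptophan the largest median change was that of DESeq2, -0.010 over all genes. Quantile normalization had a smaller median but took TNFRSF21 from 0.040 to -0.063.

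A limit of an absolute log2 fold change of 1 by construction cut the counts of all genes to 3002 higher and 2947 lower for histidine, 1801 and 1873 for tryptophan and 2999 and 2864 for the direct comparison. Pathway genes then numbered 20 and 5, 9 and 7, and 19 and 7. Members lower numbered 1 for histidine, and members higher 2 for tryptophan and 3 for the direct comparison. Members lower for tryptophan numbered 2 under quantile normalization and 1 to 2 with a library left out, with 2 without the untreated replicate 1. GALNT3 for histidine passed the threshold without the untreated replicate 2, at 0.13. Quantile normalization turned it to -0.058, for tryptophan TNFRSF21 to -0.063, ARAP1 to -0.051 and RELT to 0.00099, and in the direct comparison TNFSF13 to 0.100 and XIAP to -0.136. XIAP was -0.0081 with edgeR. The cause of these turns was not tested.

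With a library left out the log2 fold change ranged for histidine from -0.050 to 0.355 for FADD, -0.134 to 0.036 for CEBPB and -0.040 to 0.120 for FUT3. For tryptophan it ranged from -0.022 to 0.047 for TNFRSF10A, -0.0027 to 0.083 for TNFRSF21, -0.376 to 0.024 for FADD and -0.030 to 0.149 for CASP9. In the direct comparison it ranged from -0.062 to 0.018 for TNFSF13 and -0.0039 to 0.039 for XIAP.

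The ratio of death to decoy TRAIL receptors was 6.10, 0.853 and 3.39 for untreated, histidine-depleted and tryptophan-depleted libraries from reads not divided by length, and 5.72, 0.815 and 3.09 with the longest or, chosen after seeing the data, the MANE Select transcript.

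Across genes, the deviations of same-numbered libraries had correlations of 0.050 for histidine, 0.0074 for tryptophan and -0.034 for the direct comparison. From 2 libraries a group it cannot be told whether same-numbered libraries shared a culture or a batch. With a replicate block the members gave 5 higher and 3 lower for histidine, 5 and 1 for tryptophan and 6 and 2 directly. Of the named pathway genes the block changed the call of TNFRSF25 for histidine alone, at -0.26, then past the threshold.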

Other observations

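Within 200 kb of the TRAIL receptor cluster, the long noncoding RNA ENSG00000248738 was near 0 except without tryptophan. It had 0 and 2.98 normalized counts untreated, 2.71 and 1.02 without histidine, and 38.4 and 34.8 without tryptophan. LOXL2, a collagen-modifying oxidase, had 10.9 and 18.9 untreated, 12.6 and 14.2 without histidine, and 44.8 and 29.3 without tryptophan. The noncoding gene CHILL1, beside TNFRSF10B, had 52.5 and 45.8 untreated, 30.7 and 38.7 without histidine, and 17.1 and 14.7 without tryptophan. The noncoding gene ENSG00000246130, on the opposite strand at the start of TNFRSF10B, had 4.37 and 2.98 untreated, 11.7 and 16.3 without histidine, and 9.60 and 2.75 without tryptophan.

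Across the pathway lists in the direct comparison, 30 of 68 tested genes were higher without histidine, 27 were higher without tryptophan and 11 did not pass the limma threshold, beside 39.9% of all genes higher and 38.4% lower. In the execution and mitochondrial arm 11 of 16 were higher without histidine and 4 lower, and all 5 glycosylation and trafficking genes tested were lower without histidine than without tryptophan. No test of these lists was made.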
